A study of Mus musculus with 21 samples.

Results

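Rab proteins are small GTPases that give each membrane compartment of the cell its identity, and the genes described here are the Rab genes of mouse bone-marrow-derived macrophages treated with interleukin 4 (IL-4), interleukin 13 (IL-13) and tumour necrosis factor (TNF). Members were the rows of the count table whose symbol is Rab followed by a number and at most 2 further letters. Of 62 such rows, 3 were left out because they name a partner or an antisense RNA and no GTPase (Rab3ip, Rab5if and Rab10os). Of the 59 rows that remained, 48 had a mean of at least 1 CPM (the read count relative to the library total, with totals scaled by TMM, the trimmed mean of M values) in at least 1 group. These 48 members stand among 47069 gene identifiers in the table, and 47 of them passed the filter on low counts, with 15581 genes tested in all. The exception was Rab26. Just inside the threshold of 1 CPM, the highest group mean was 1.05 CPM for Rab4b and 1.06 CPM for Rab36, the latter resting on 1 library. Just outside it, the highest group mean was 0.692 CPM for Rab33a and 0.581 CPM for Rab3c.

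Wild-type C57BL/6 mice aged 8 to 10 weeks gave the bone marrow, and the growth factor M-CSF was used to obtain macrophages in all groups. They were left untreated (Ctrl_0h), or received TNF (TNF_6h, TNF_24h), IL-4 with IL-13 (called IL here, IL_6h and IL_24h), or all 3 cytokines (IL_TNF_6h and IL_TNF_24h), each at 10 ng/ml, for 6 or 24 h. Each of the 7 groups had 3 libraries, which gave 21 in all. Whether libraries of the same group stem from separate mice or cultures is not stated, so p values measure the spread between these libraries, which may be technical. Untreated cells were sampled at 0 h alone, so a comparison with Ctrl_0h also carries the time in culture.

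A Rab protein is switched on when an exchange factor loads it with GTP, and in that state it recruits effectors such as tethers and motor adaptors. A GTPase-activating protein switches it off again, and prenyl groups added by a dedicated transferase hold it in the membrane. In macrophages, Rab proteins of the early and late endosome follow each other on the phagosome as it matures into a compartment that kills and digests microbes, while others return receptors to the surface or carry secretory granules and cytokines.

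The sequence before the start site is shown for 3 of the 4 members that moved the same way in every comparison of cells with and without TNF. Of these, Rab20 and Rab32 moved upward and Rab31 downward. Each line holds the 250 bases before the RefSeq start in GRCm38.p6, all on the minus strand, written 5′ to 3′. Rab20 lies at chr8:11478641-11478890, Rab32 at chr10:10558208-10558457 and Rab31 at chr17:65772753-65773002. Capitals mark the match to the E-box CACGTG.
Rab20: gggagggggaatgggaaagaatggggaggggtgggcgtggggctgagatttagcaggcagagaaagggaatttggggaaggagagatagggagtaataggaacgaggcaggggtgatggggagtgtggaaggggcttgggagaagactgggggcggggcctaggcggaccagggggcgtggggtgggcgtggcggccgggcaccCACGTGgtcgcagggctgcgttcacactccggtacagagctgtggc
Rab32: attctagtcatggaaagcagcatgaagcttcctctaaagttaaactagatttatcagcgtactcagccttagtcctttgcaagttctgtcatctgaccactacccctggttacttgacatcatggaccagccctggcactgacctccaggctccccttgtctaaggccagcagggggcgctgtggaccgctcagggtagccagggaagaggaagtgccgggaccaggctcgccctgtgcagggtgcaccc
Rab31: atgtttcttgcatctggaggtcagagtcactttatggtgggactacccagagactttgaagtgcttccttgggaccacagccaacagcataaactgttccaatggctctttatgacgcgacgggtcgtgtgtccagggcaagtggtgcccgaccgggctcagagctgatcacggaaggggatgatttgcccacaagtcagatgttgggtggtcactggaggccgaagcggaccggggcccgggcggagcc
On both strands, 3 motifs were searched: the E-box CACGTG, the STAT6 motif (TTC, any 4 bases, GAA) and the NF-kB consensus. The match in Rab20 begins 46 bases before the start, and none of the 3 motifs was in the windows of Rab32 and Rab31. Rab12, which also moved upward each time and is not shown, had no match either. RefSeq start windows were found for 39 of the 48 members, with 51 windows in all. The NF-kB consensus was in 3.92% of Rab windows and in 3.9% of all 32851 windows of the same length, the STAT6 motif in 3.92% and 5.85%, and the E-box in 9.80% and 6.02%. These are descriptions of the letters and say nothing of binding.

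The libraries held 28063252 to 48654300 counts. Ctrl_0h replicate 2 stood apart: it had a count for 27761 identifiers, against 16996 to 20631 in the others, and 6 members (Rab15, Rab26, Rab36, Rab37, Rab43 and Rab44) at 3 or more times the level of both other untreated libraries. By the chi-square statistic per gene between libraries of a group, Ctrl_0h replicate 2 (84.2 and 86.0), IL_6h replicate 2 (87.5 and 155), IL_TNF_6h replicate 3 (89.2 and 109) and IL_TNF_24h replicate 1 (96.8 and 98.5) differed most from both others of their group, whose own value was 8.71 to 18.5. TNF_24h replicates 1 and 3 differed by 107. Libraries came in sets that the labels do not name. Xist was at 162 to 1013 CPM in all groups except IL_24h and IL_TNF_24h, where it was at most 0.145 CPM and the Y-linked gene Ddx3y was at 41.8 to 50.9 CPM. Ifi202b was at 30.3 to 64.1 CPM in IL_6h and IL_TNF_6h and at 0 in every other library. The comparisons of cells with and without TNF stay within a set, whereas those of IL-treated with untreated cells cross sets, and IL cannot be told apart from the set there. Summed macrophage markers lay between 11650 and 12570 CPM in IL_24h and IL_TNF_24h, the lowest groups, and between 39070 and 42060 CPM in TNF_6h, the highest. Most of the sum was Lyz2 in every group, with means of 6829 CPM in IL_24h and 30978 CPM in TNF_6h. Other markers went both ways between Ctrl_0h and IL_24h, such as Csf1r (2050 and 2655 CPM) and Cd14 (964 and 93.4 CPM). The part of these markers in the Rab values was not tested. The summed markers of neutrophils (at most 3.89 CPM), fibroblasts (8.75 CPM), B cells (9.15 CPM), T and NK cells (1.17 CPM), mast cells with basophils and eosinophils (0.872 CPM) and erythroid cells (4.96 CPM) were low. Dendritic cell markers reached 28.4 CPM, in IL_TNF_24h, and the platelet list 169 CPM, nearly all of it Pf4, in TNF_24h. The highest sums of B cell, T and NK cell, mast cell, erythroid and neutrophil markers were all in Ctrl_0h replicate 2, and the part of such cells in the values of this library was not tested. Fibroblast markers were highest in IL_6h replicate 2 (8.75 CPM) and IL_TNF_6h replicate 3 (7.33 CPM), against at most 0.398 CPM in the others of these groups. The part of such cells in these libraries was not tested. In bulk RNA, fewer cells of a kind and less RNA per cell cannot be told apart.

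The Rab genes together took 0.265% to 0.382% of the TMM-scaled total of a library. Their summed level was 3103 ± 399 CPM in untreated cells (SD, n = 3 here and below), with the lowest library Ctrl_0h replicate 2 at 2649 CPM. It lay between 3526 ± 273 CPM in IL_TNF_24h and 3647 ± 82.4 CPM in TNF_24h in the treated groups. Per kilobase of exon, the highest levels in untreated cells were those of Rab1b, which acts between endoplasmic reticulum and Golgi (176 ± 26.3 CPM per kb), and of Rab5c of the early endosome (152 ± 33.6 CPM per kb). Rab7 of the late endosome followed at 92.4 ± 15.6 CPM per kb, and its relative Rab7b, which works in transport from late endosomes back to the Golgi, at 76.5 ± 13.5 CPM per kb. Neighbours in this order differed by no more than the sum of their SDs within each pair (Rab1b and Rab5c, Rab7 and Rab7b). Of the 48 members, 14 had all 7 group means within a 2-fold range. Rab35, a recycling Rab, varied least: its group means lay within 1.17-fold, with 96.0, 77.1 and 92.0 CPM in untreated cells and 102, 90.7 and 94.9 CPM in IL_TNF_24h. Rab35 and Rab2a, which acts between endoplasmic reticulum and Golgi, passed the test in none of the 10 comparisons.

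Only 4 Rab genes changed the same way in all 4 comparisons of cells with and without TNF, which are TNF_6h and TNF_24h against Ctrl_0h, IL_TNF_6h against IL_6h and IL_TNF_24h against IL_24h. Rab20, Rab12 and Rab32 rose, and Rab31 fell. Changes are log2 fold changes ± standard error from a fit across all genes, called at an adjusted p under 0.05.

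Rab20, a Rab of phagosomes and of endosomes on the way to the lysosome, had the largest rise. Untreated cells had 16.2, 11 and 12.4 CPM. TNF_6h had 64.0, 53.0 and 61.3 CPM, and TNF_24h had 71.8, 74.2 and 56.4 CPM. No TNF library overlapped the untreated ones. With IL alone the level was 12.4, 9.49 and 12.4 CPM at 6 h and 3.12, 3.16 and 3.32 CPM at 24 h. With all 3 cytokines it was 43.2, 38.6 and 34.8 CPM at 6 h and 13.1, 4.49 and 5.39 CPM at 24 h, again with no overlap with IL alone, though replicate 1 at 24 h was far above the others. The change was 2.17 ± 0.27 (adjusted p = 2.96e-06) in TNF_6h, 2.35 ± 0.27 (adjusted p = 9.05e-07) in TNF_24h and 1.77 ± 0.27 (adjusted p = 9.02e-05) in IL_TNF_6h. At 24 h with IL it was 1.25 ± 0.28 (adjusted p = 0.00481). It was 0.63 without IL_TNF_24h replicate 1 (adjusted p = 0.0388) and was not called when only these 2 groups were fitted (adjusted p = 0.0679). The start of Rab20 overlaps the long noncoding RNA gene E230013L22Rik by 712 bases, and the strand setting of the counting is not given.

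Rab12 directs membrane receptors from endosomes to lysosomes. Its level was 42.8, 27.4 and 37.1 CPM in untreated cells, 65.9, 66.3 and 64.8 CPM in TNF_6h and 91.6, 100.2 and 111 CPM in TNF_24h, so that the 3 groups did not overlap. It was 52.6, 53.3 and 49.4 CPM in IL_6h and 96.0, 97.3 and 101 CPM in IL_TNF_6h, then 52.9, 46.8 and 47.9 CPM in IL_24h and 77.8, 66.0 and 65.4 CPM in IL_TNF_24h. The changes were 0.88 ± 0.13 (adjusted p = 1.84e-05), 1.497 ± 0.13 (adjusted p = 1.60e-08), 0.92 ± 0.13 (adjusted p = 2.85e-05) and 0.50 ± 0.13 (adjusted p = 0.0110) in the order of the comparisons above. The last call was lost without IL_24h replicate 2 or 3 or IL_TNF_24h replicate 1 (adjusted p from 0.0585 to 0.0634). Among these 4 genes Rab12 alone also rose between 6 and 24 h of TNF, by 0.62 ± 0.13 (adjusted p = 0.00114).

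Rab32 acts on lysosome-related organelles and on phagosomes that hold bacteria. Untreated cells had 57.5, 37.9 and 53.4 CPM, TNF_6h had 81.8, 83.2 and 81.3 CPM and TNF_24h had 83.5, 98.2 and 102 CPM. IL_24h had 35.6, 36.0 and 37.9 CPM and IL_TNF_24h had 61.1, 61.6 and 63.5 CPM, with no overlap. Its change had much the same size with and without IL, at 0.73 and 0.93 without and 0.77 and 0.77 with IL, each ± 0.13. The difference between the effects of TNF with and without IL was 0.04 ± 0.18 at 6 h and -0.16 ± 0.18 at 24 h, and neither passed the test.

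Rab31, which works between the trans-Golgi network and endosomes, was the only member that fell in all 4. Levels were 158, 114 and 143 CPM in Ctrl_0h, 85.7, 86.8 and 74.3 CPM in TNF_6h and 73.5, 70.7 and 83.0 CPM in TNF_24h. IL-treated cells had 184, 201 and 174 CPM at 6 h and 183, 186 and 193 CPM at 24 h. Adding TNF brought this to 107, 99.3 and 117 CPM and 126, 127 and 122 CPM. The libraries with TNF lay below those without it in each comparison. Its changes were -0.75 ± 0.12 (adjusted p = 3.68e-05), -0.87 ± 0.12 (adjusted p = 5.31e-06), -0.79 ± 0.12 (adjusted p = 5.86e-05) and -0.58 ± 0.12 (adjusted p = 0.00168).

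**Figure D1:**
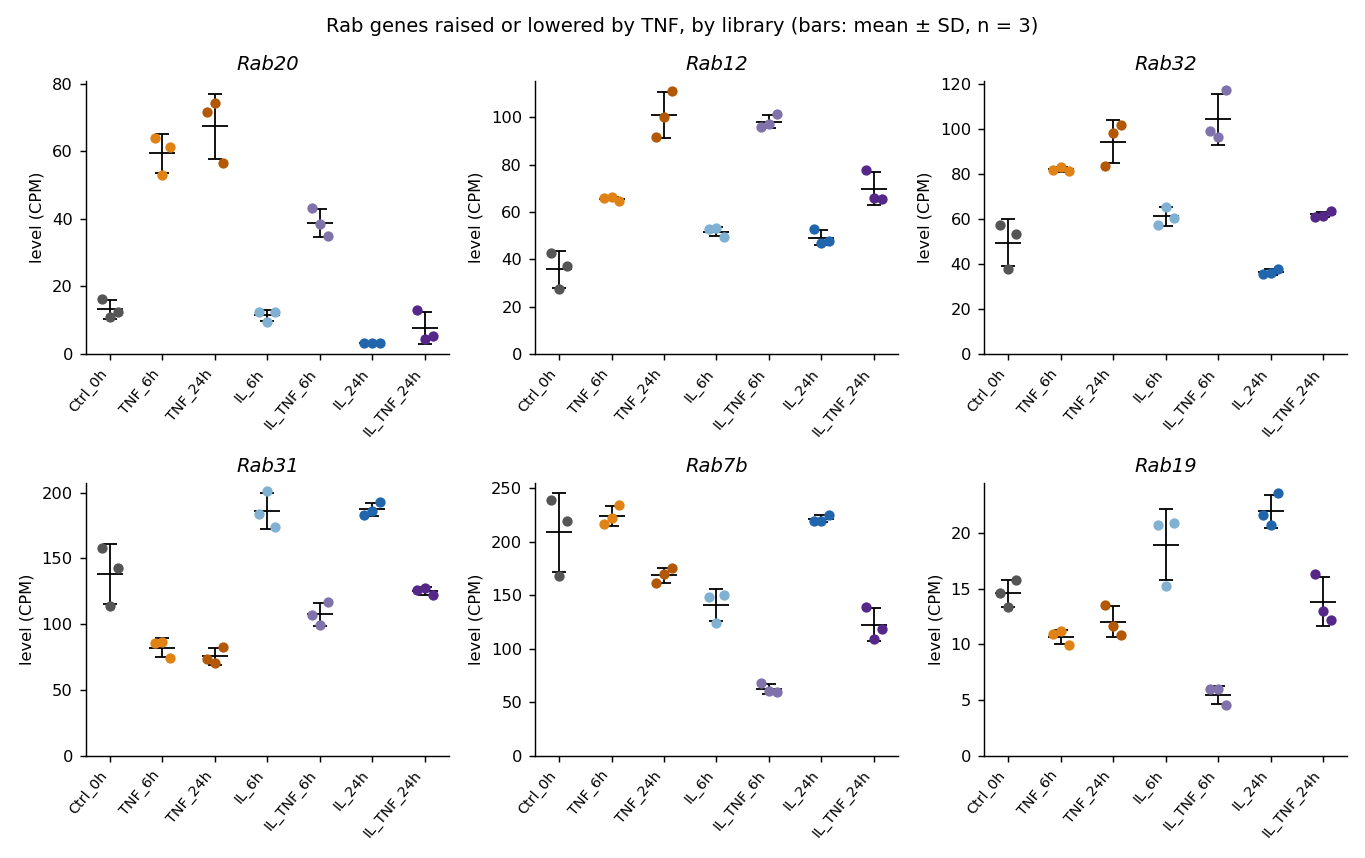
Level in CPM (y axis, from 0) of 6 Rab genes in each library of the 7 groups (x axis); points are libraries, horizontal bars the mean and error bars the SD of 3 libraries. Rab20 stands at 53.0 to 74.2 CPM in the cells given TNF alone and at 10.96 to 16.2 CPM in untreated cells, Rab31 is lower wherever TNF was added, and Rab7b and Rab19 are lower in IL_TNF_6h (59.5 to 68.0 CPM and 4.53 to 5.96 CPM) than in IL_6h.

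With TNF alone, members of 4 of the 6 role groups changed in both directions at 6 h, the exceptions being regulated secretion and the less studied members. These groups were drawn up here with a single role for each member, though some act in several compartments. At 6 h, 14 members were raised and 11 lowered, which is 29.8% and 23.4% of the 47 tested, where 18.8% and 20.5% of all genes were raised and lowered. At 24 h, 16 were raised and 13 lowered (34.0% and 27.7%), against 20.9% and 24.4% of all genes. The median change over the members was 0.02 at 6 h and -0.02 at 24 h, beside -0.04 and -0.09 over all genes tested. Of the 25 calls at 6 h, 13 held under every alternative processing tried, and of the 29 at 24 h, 21 did. Without TNF_6h replicate 2 the count at 6 h was 16.

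Among Rabs of the early endosome and phagosome entry, 4 of 10 were raised and 1 lowered at 6 h, and 6 raised and 2 lowered at 24 h. Of all genes, 18.8% were raised and 20.5% lowered at 6 h, and 20.9% and 24.4% at 24 h. Without Ctrl_0h replicate 2 the rises of Rab5a (adjusted p = 0.105) and Rab5b (adjusted p = 0.0691) at 6 h were lost. That of Rab5c at 24 h (adjusted p = 0.169) was lost too. Rab22a, which sorts cargo in early endosomes, rose by 0.73 ± 0.10 (adjusted p = 9.90e-06) at 24 h, from 49.0, 39.3 and 47.1 CPM to 68.4, 78.8 and 76.6 CPM. Rab21, which carries integrins, rose by 0.99 ± 0.16 (adjusted p = 4.15e-05) at 24 h, from 61.3, 39.8 and 48.5 CPM to 100.3, 101 and 96.1 CPM. Both were above every untreated library. Rab4a, a Rab of rapid recycling, fell late: it was at 14.9, 14.1 and 15.3 CPM in untreated cells, 11.9, 10.1 and 12.9 CPM in TNF_6h and 5.14, 5.81 and 5.30 CPM in TNF_24h. Its change was -1.45 ± 0.16 (adjusted p = 3.40e-07) at 24 h.

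The late endosome, lysosome and phagosome group had 4 raised and 3 lowered of 10 at 6 h and 4 raised and 1 lowered at 24 h. Beside these stand 18.8% and 20.5% of all genes at 6 h, and 20.9% and 24.4% at 24 h. The 3 lowered include Rab36, whose call rests on Ctrl_0h replicate 2. Rab7, the Rab of late endosomes and of fusion with lysosomes, rose from 271, 195 and 257 CPM to 366, 395 and 374 CPM at 6 h and 325, 352 and 349 CPM at 24 h. Its changes were 0.65 ± 0.12 (adjusted p = 2.31e-04) and 0.50 ± 0.12 (adjusted p = 0.00202). Rab9, which returns mannose 6-phosphate receptors to the Golgi, rose by 0.54 and 0.63. Rab34, a Rab of lysosome positioning, fell in contrast, from 28.9, 39.6 and 28 CPM to 18.2, 17.9 and 15 CPM and 15.8, 14.2 and 14 CPM, or with a change of -0.91 ± 0.15 (adjusted p = 6.35e-05) and -1.13 ± 0.15 (adjusted p = 4.70e-06). Rab38, the close relative of Rab32, was at 0.802, 0.440 and 1.11 CPM in untreated cells and 0.402, 0.298 and 0.103 CPM in TNF_6h, a change of -1.53 ± 0.47 (adjusted p = 0.0142). That rests on 3 to 34 counts a library, and the call was lost without Ctrl_0h replicate 3 or TNF_6h replicate 3 (adjusted p from 0.0718 to 0.0725).

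Of 9 Rabs of recycling and transport to the surface, 2 were raised and 2 lowered at 6 h, and 1 and 2 at 24 h. Across all genes the shares were 18.8% and 20.5% at 6 h, and 20.9% and 24.4% at 24 h. Rab15 is among the lowered at both times, and these calls rest on Ctrl_0h replicate 2. Rab10, which moves vesicles and receptors to the plasma membrane, rose from 71.1, 54.3 and 73.3 CPM to 125, 134 and 121 CPM and 121, 139 and 166 CPM. The changes were 0.94 ± 0.15 (adjusted p = 6.27e-05) and 1.10 ± 0.15 (adjusted p = 7.74e-06). Its antisense neighbour Rab10os shares 2947 bases with it and lay between 25.0 and 36.6 CPM in these 3 groups, and without a known strand setting the reads of both cannot be told apart. Rab8a, a Rab of exocytosis, was raised at 6 h (0.49 ± 0.11, adjusted p = 0.00196) and was not called at 24 h (0.17 ± 0.11).

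Among 10 Rabs of the endoplasmic reticulum and Golgi, 4 were raised and 2 lowered at 6 h, and 5 raised and 1 lowered at 24 h. The shares over all genes were 18.8% and 20.5% at 6 h, and 20.9% and 24.4% at 24 h. None of the 4 rises at 6 h was called without Ctrl_0h replicate 2. Adjusted p was then 0.234 for Rab1a, 0.0565 for Rab6a, 0.0758 for Rab33b and 0.0621 for Rab2b. At 24 h the rises of Rab6a (adjusted p = 0.102) and Rab18 (adjusted p = 0.0601) were lost without it. Rab1a, for transport from the endoplasmic reticulum to the Golgi, rose by 0.70 ± 0.14 (adjusted p = 4.33e-04) at 24 h, with 152, 96.8 and 147 CPM before and 200.1, 221 and 222 CPM after. Rab33b, a Golgi Rab also tied to autophagy, rose by 0.76 ± 0.16 (adjusted p = 7.73e-04) at 24 h. Rab6b, the less abundant relative of the Golgi Rab Rab6a, fell with a change of -0.84 ± 0.17 (adjusted p = 6.11e-04) at 6 h and -0.88 ± 0.17 (adjusted p = 3.42e-04) at 24 h. Rab2b was called with a rise of 1.15 ± 0.40 (adjusted p = 0.0283) and 1.63 ± 0.39 (adjusted p = 0.00241), from 0.214, 0.304 and 0.359 CPM to 0.771, 0.656 and 0.516 CPM and 0.456, 0.665 and 1.59 CPM. These levels are low, with 8 to 48 counts a library. The call at 6 h was lost without Ctrl_0h replicate 1 or 2 or TNF_6h replicate 1 or 2 (adjusted p from 0.0621 to 0.102). Without TNF_24h replicate 3 the change at 24 h was 0.94 (adjusted p = 0.0351), and a fit of the compared groups alone did not call it (adjusted p = 0.0649).

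None of the 5 tested Rabs of regulated secretion was raised by TNF alone, 2 were lowered at 6 h and all 5 at 24 h. Of all genes, 18.8% and 20.9% were raised at 6 and 24 h, and 20.5% and 24.4% lowered. Rab27a, which docks secretory lysosomes and exosome-bearing endosomes, fell from 4.54, 3.42 and 5.16 CPM to 1.21, 1.19 and 0.825 CPM and 1.00, 0.805 and 1.82 CPM. The changes were -2.02 ± 0.39 (adjusted p = 3.32e-04) and -1.85 ± 0.38 (adjusted p = 6.07e-04). Rab3a, known from synaptic vesicles and from lysosome exocytosis, was at 5.76, 5.16 and 5.33 CPM at 6 h beside 6.09, 4.60 and 6.95 CPM in untreated cells. At 24 h it was at 1.76, 1.58 and 1.66 CPM, with no overlap, and its change was -1.82 ± 0.19 (adjusted p = 2.60e-07). Rab3d of secretory granules fell with a change of -0.64 ± 0.14 (adjusted p = 8.19e-04) at 24 h. Rab37 and Rab44 rested on Ctrl_0h replicate 2 and are taken up further on. Of the remaining members, Rab23, a Rab that opposes Hedgehog signalling, fell from 5.75, 5.95 and 6.98 CPM to 3.08, 2.98 and 3.13 CPM at 6 h (-1.02 ± 0.18, adjusted p = 1.24e-04). Rab40c, which serves a ubiquitin ligase through its SOCS box, fell from 54.6, 52.2 and 58.1 CPM to 28.6, 22.2 and 24.0 CPM at 24 h (-1.14 ± 0.11, adjusted p = 5.05e-08).

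**Figure D2:**
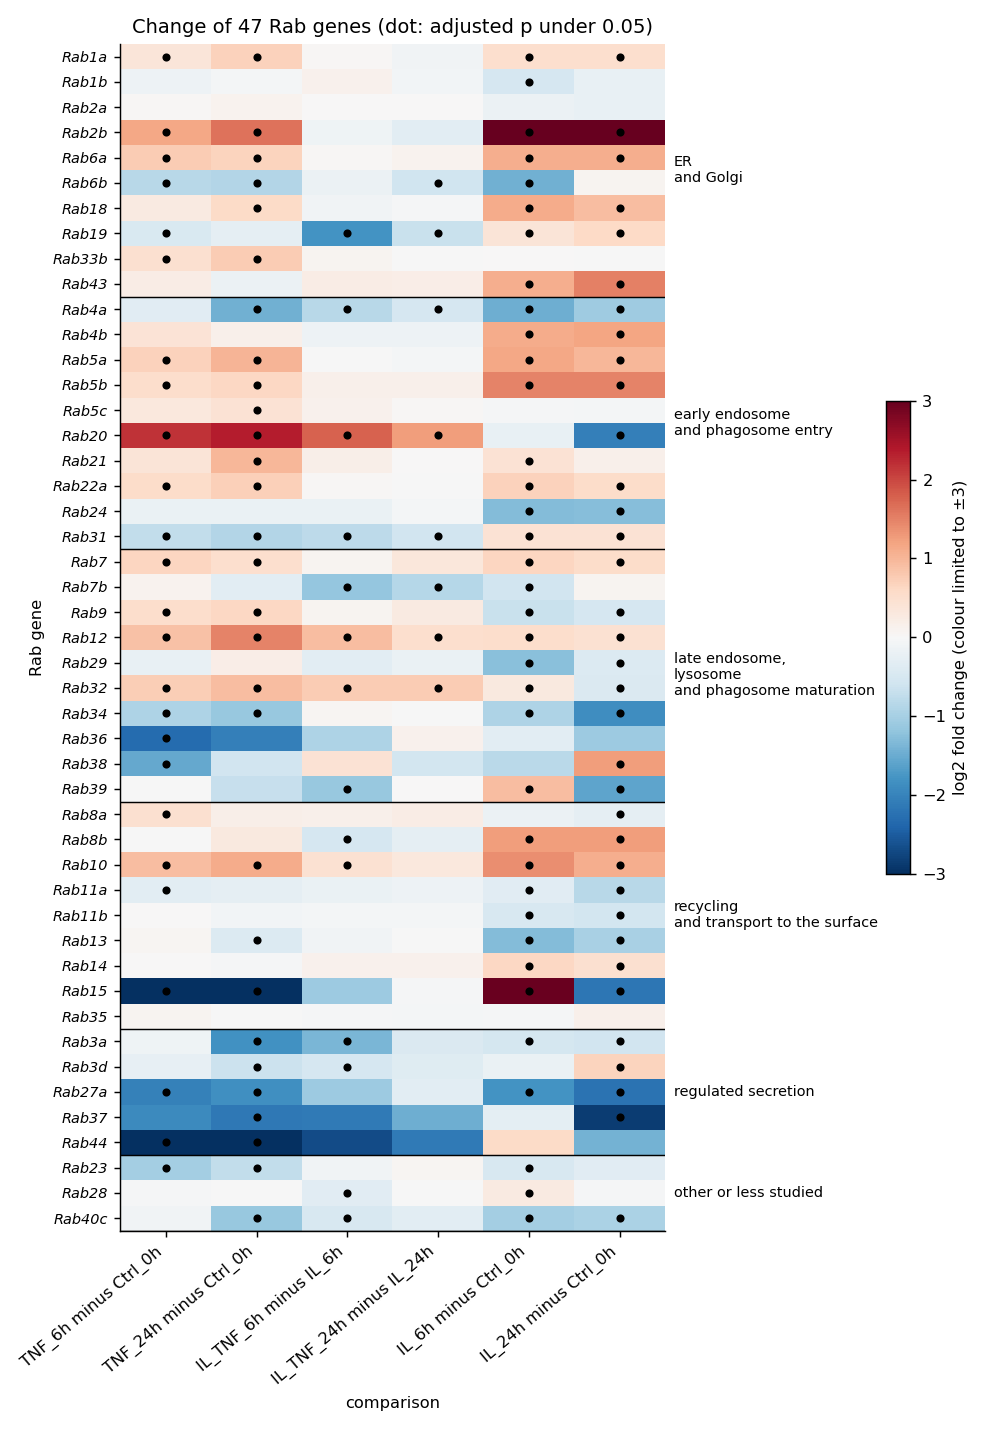
Log2 fold change (colour, limited to ±3) of the 47 tested Rab genes (rows, by compartment) in 6 comparisons (columns); a black dot marks an adjusted p under 0.05. Rab20, Rab12 and Rab32 are red and Rab31 blue in all 4 comparisons of cells with and without TNF, and the 2 comparisons of IL-treated with untreated cells carry 36 and 35 dots.

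Between 6 and 24 h of TNF, 3 members rose and 7 fell, beside 12.7% of all genes raised and 10.9% lowered. The late fall of 3 genes held under every alternative: -1.70 ± 0.19 (adjusted p = 3.10e-06) for Rab3a, -1.10 ± 0.16 (adjusted p = 3.30e-05) for Rab4a and -1.04 ± 0.11 (adjusted p = 1.10e-06) for Rab40c. Rab21 rose by 0.61 ± 0.16 (adjusted p = 0.00700). Rab29, which acts at the trans-Golgi network and lysosome, was called with 0.44 ± 0.14 (adjusted p = 0.0310), a call lost without TNF_24h replicate 1 or 2 or TNF_6h replicate 1, 2 or 3 (adjusted p from 0.0638 to 0.15). Rab7b was called with -0.41 ± 0.12 (adjusted p = 0.0208), lost without TNF_24h replicate 1 or 2 or TNF_6h replicate 2 or 3 (adjusted p from 0.0549 to 0.0830). The count of 10 was 5 without TNF_24h replicate 2 or TNF_6h replicate 3, and 6 without TNF_24h replicate 1 or TNF_6h replicate 1 or 2.

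In cells that also received IL, TNF changed fewer Rab genes, and most of these fell. At 6 h, 4 were raised and 10 lowered (8.51% and 21.3% of those tested), against 7.09% and 6.98% of all genes. At 24 h, 3 were raised and 5 lowered (6.38% and 10.6%), against 6.03% and 5.08% of all genes. Of the calls, 9 of 14 at 6 h and 4 of 8 at 24 h held under every alternative, and the count at 24 h was 5 without IL_24h replicate 3. The members raised with IL at 6 h, which are Rab10, Rab12, Rab20 and Rab32, were all raised by TNF alone at 6 h too (100% of 4 and 28.6% of 14). Of the lowered ones, Rab19 and Rab31 were shared, 2 of 10 with IL and 2 of 11 (18.2%) without. At 24 h the 3 raised members were shared, as were Rab31, Rab4a and Rab6b among the lowered ones (60.0% of 5 and 23.1% of 13). These comparisons share no library, and no member was called in opposite directions.

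Rab7b fell with TNF at both times when IL was present and was just short of the threshold at 24 h with TNF alone. It was at 148, 124 and 150.5 CPM in IL_6h and 68.0, 60.4 and 59.5 CPM in IL_TNF_6h. At 24 h it was at 219, 219.7 and 225 CPM with IL and 139, 109 and 118 CPM with all 3 cytokines. Untreated cells had 239, 168 and 219 CPM and TNF_6h had 216, 222 and 234 CPM, which overlap. The changes with IL were -1.17 ± 0.13 (adjusted p = 1.55e-06) at 6 h and -0.86 ± 0.13 (adjusted p = 7.58e-05) at 24 h. Without IL, the change at 6 h was 0.10 ± 0.12 (adjusted p = 0.545). At 24 h it was -0.31 ± 0.12 (adjusted p = 0.0505), with 161, 169 and 175 CPM, and this fall was called under 6 of the alternatives, among them DESeq2 (adjusted p = 0.0159), the strict filter (adjusted p = 0.0139) and the fit without Ctrl_0h replicate 2 (-0.45, adjusted p = 0.00463). The difference between the effects at 6 h was -1.27 ± 0.18 (adjusted p = 4.99e-05), which held under every alternative. The difference at 24 h was -0.55 ± 0.18 (adjusted p = 0.0299), and that call was lost without Ctrl_0h replicate 2, IL_24h replicate 1 or 3, IL_TNF_24h replicate 2 or 3 or TNF_24h replicate 2 or 3 (adjusted p from 0.0582 to 0.0909).

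Rab19, a Golgi Rab, showed the deepest fall at 6 h with IL, from 20.7, 15.2 and 20.9 CPM to 5.95, 5.96 and 4.53 CPM, or -1.79 ± 0.16 (adjusted p = 1.05e-07). At 24 h it fell from 21.6, 20.7 and 23.6 CPM to 16.3, 13.0 and 12.1 CPM, or -0.67 ± 0.15 (adjusted p = 0.00469). With TNF alone at 6 h it went from 14.6, 13.4 and 15.8 CPM to 10.9, 11.2 and 9.94 CPM, a call (-0.45 ± 0.15, adjusted p = 0.0244) that was lost without Ctrl_0h replicate 1 or 3 or TNF_6h replicate 1, 2 or 3 (adjusted p from 0.0503 to 0.0936). The difference between the effects of TNF with and without IL was -1.34 ± 0.22 (adjusted p = 2.11e-04) at 6 h. Rab19 was also the only member whose effect of TNF with IL differed between 24 and 6 h, by 1.12 ± 0.21 (adjusted p = 0.00383). That comparison crosses sets of libraries, so time cannot be told apart from the set. In that comparison 1.89% of all genes were raised and 1.78% lowered, and 4 members rose and 1 fell at an unadjusted p under 0.05. With single libraries left out 1 to 3 members were called, 2 without IL_6h replicate 2 or IL_TNF_6h replicate 1 and 3 without IL_TNF_24h replicate 1.

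Rab3a fell with IL at 6 h, from 4.33, 3.66 and 4.31 CPM to 1.88, 1.31 and 1.58 CPM (-1.36 ± 0.19, adjusted p = 3.14e-05). It stood at 4.17, 3.59 and 4.17 CPM and 2.56, 3.29 and 3.0 CPM at 24 h, a change that was not called (-0.43 ± 0.18, adjusted p = 0.166). With TNF alone the fall was called at 24 h and not at 6 h. In cells with IL, the difference between the effects of TNF at 24 and 6 h was not called for Rab3a. These times with IL also lie in different sets of libraries. The difference between the effects of TNF with and without IL was -1.25 ± 0.26 (adjusted p = 0.00228) at 6 h and 1.39 ± 0.26 (adjusted p = 7.24e-04) at 24 h, and both held under every alternative. Rab4a fell at both times with IL, with a change of -0.83 ± 0.16 (adjusted p = 9.04e-04) and -0.51 ± 0.15 (adjusted p = 0.0363), the second call lost without IL_24h replicate 1, 2 or 3 or IL_TNF_24h replicate 2 or 3 (adjusted p from 0.0762 to 0.129). Rab40c fell at 6 h with a change of -0.49 ± 0.11 (adjusted p = 0.00286). Rab39, a Rab of phagosome acidification, was called at 6 h with -1.14 ± 0.31 (adjusted p = 0.0144), from 4.57, 7.45 and 4.42 CPM to 1.82, 1.9 and 3.72 CPM. That call was lost without IL_6h replicate 2 or IL_TNF_6h replicate 1 or 2 (adjusted p from 0.0878 to 0.105). Rab10 was called at 6 h with 0.46 ± 0.15 (adjusted p = 0.0473), lost without IL_6h replicate 1 or 3 or IL_TNF_6h replicate 1, 2 or 3 (adjusted p from 0.0525 to 0.214). At 24 h Rab6b was called with -0.61 ± 0.17 (adjusted p = 0.0218), lost without IL_24h replicate 1 or 3 or IL_TNF_24h replicate 1 (adjusted p from 0.0904 to 0.116).

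The effect of TNF differed with and without IL for 8 members at 6 h and for 16 at 24 h. At 6 h, 3 differences were positive and 5 negative, beside 9.27% and 9.13% of all genes. At 24 h, 6 were positive and 10 negative, beside 11.6% and 12.5% of all genes. Since the effect without IL is taken against Ctrl_0h, the time in culture is part of these differences, as is the set of libraries. Of the 8 differences 4, and of the 16 differences 10, held under every alternative. The count at 6 h was 14 without IL_TNF_6h replicate 3, and 5 without IL_6h replicate 3 or IL_TNF_6h replicate 1 or 2.

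Rab34 fell with TNF alone and was not called with IL (0.06 ± 0.15 at 6 h and -0.02 ± 0.15 at 24 h). It was at 20.2, 15.2 and 15.4 CPM in IL_6h and 17.6, 20.2 and 15.3 CPM in IL_TNF_6h, then 9.17, 8.48 and 9.0 CPM in IL_24h and 8.25, 9.25 and 8.78 CPM in IL_TNF_24h, groups that overlap at each time. The difference was 0.98 ± 0.21 (adjusted p = 0.00268) at 6 h and 1.11 ± 0.21 (adjusted p = 7.78e-04) at 24 h. Several members that rose with TNF alone at 24 h were not called with TNF at 24 h when IL was present, and the difference itself passed the test. Rab5a, the Rab of early endosome fusion, was at 41.1, 49.97 and 67.4 CPM in TNF_24h and 28.3, 17.8 and 32.3 CPM in untreated cells. With IL it was at 49.1, 53.1 and 54.0 CPM and with all 3 cytokines at 53.9, 43.8 and 51.9 CPM. The difference was -1.08 ± 0.31 (adjusted p = 0.0171), a call lost without IL_TNF_24h replicate 2 or TNF_24h replicate 3 (adjusted p from 0.0519 to 0.0644). For Rab21 the difference was -0.98 ± 0.22, for Rab22a -0.73 ± 0.14 and for Rab1a -0.79 ± 0.20. The mean levels of these 4 genes in IL_24h were above those in untreated cells, a comparison that crosses sets of libraries. For Rab21 the libraries of IL_24h and Ctrl_0h overlapped and the test was not passed. For Rab2b the difference was -1.94 ± 0.51 (adjusted p = 0.00997), and -1.26 without TNF_24h replicate 3 (adjusted p = 0.0463). For Rab12, which rose both with and without IL, the difference at 24 h was -0.99 ± 0.18 (adjusted p = 4.59e-04).

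**Figure D3:**
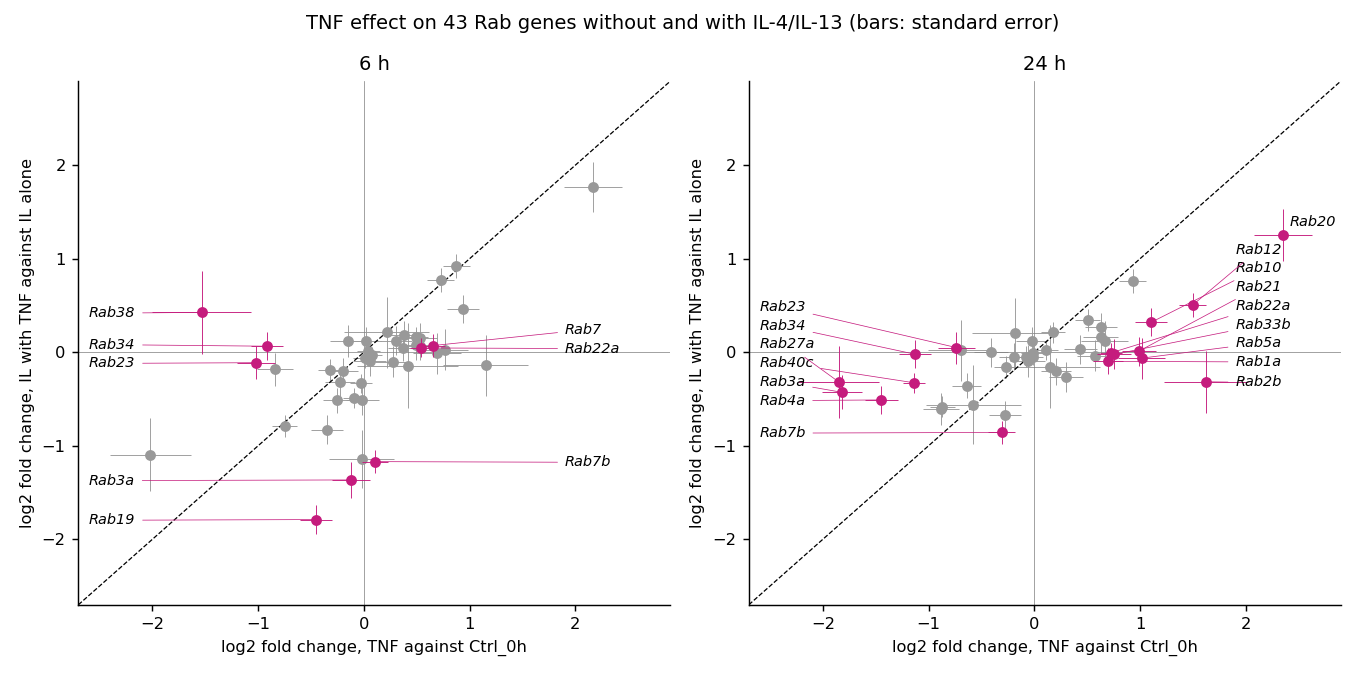
Log2 fold change with TNF alone against Ctrl_0h (x axis) and with IL and TNF against IL alone (y axis) for 43 Rab genes at 6 h and 24 h, with standard errors as bars; the dashed line marks equal effects, and named pink points are members whose effects differed at an adjusted p under 0.05. Rab15, Rab36, Rab37 and Rab44 are left out because Ctrl_0h replicate 2 sets their untreated level. Rab7b, Rab19 and Rab3a lie below the line at 6 h, and Rab20, Rab12 and Rab2b lie below it at 24 h.

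IL-treated and untreated cells differed in more Rab genes than any TNF comparison, as they did across all genes. At 6 h, 21 members were higher and 15 lower than in Ctrl_0h (44.7% and 31.9%), beside 32.8% and 31.6% of all genes. At 24 h, 18 were higher and 17 lower (38.3% and 36.2%), beside 31.7% and 32.6% of all genes. Of the 36 and 35 calls, 23 and 26 held under every alternative. The values below stand beside the different sets of libraries named above, whose part cannot be told apart from that of IL.

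Rab2b, a Rab between endoplasmic reticulum and Golgi, had the largest change upward with Ctrl_0h replicate 2 in the fit (Rab15 and Rab44 passed it in IL_6h without that library), from 0.214, 0.304 and 0.359 CPM to 3.31, 3.13 and 2.99 CPM at 6 h and 3.0, 2.27 and 2.85 CPM at 24 h. The changes were 3.42 ± 0.39 (adjusted p = 3.80e-07) and 3.21 ± 0.39 (adjusted p = 8.69e-07). Its neighbour Tox4 overlaps it by 250 bases and was at 32.9 to 42.6 CPM in untreated cells, 81.3 to 87.7 CPM in IL_6h and 72.7 to 74.0 CPM in IL_24h. Its near relative Rab2a was at 124, 118 and 116 CPM and 95.3, 111 and 111 CPM, which was not called. Rab6a, for traffic back to and within the Golgi, rose by 1.09 ± 0.22 (adjusted p = 2.97e-04) and 1.09 ± 0.22 (adjusted p = 3.03e-04). Rab18, a Rab of lipid droplets and the endoplasmic reticulum, rose by 1.12 ± 0.17 (adjusted p = 1.17e-05) and 0.93 ± 0.17 (adjusted p = 9.81e-05). Rab43 of the Golgi was called at 24 h with 1.52 ± 0.40 (adjusted p = 0.00275), from 1.98, 7.61 and 1.86 CPM to 11, 11.3 and 10.1 CPM, and the change was 2.49 without Ctrl_0h replicate 2 (adjusted p = 2.00e-06). A fit of these groups alone did not call it (adjusted p = 0.0513). Rab6b fell at 6 h, from 11, 9.67 and 10.6 CPM to 3.75, 4.02 and 3.68 CPM (-1.45 ± 0.17, adjusted p = 7.16e-07), and was at 11.6, 9.70 and 11.7 CPM in IL_24h.

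In the early endosome group, Rab5b rose from 71.7, 38.5 and 69.0 CPM to 157, 164 and 179 CPM and 168, 156 and 176 CPM. Its changes were 1.48 ± 0.17 (adjusted p = 3.77e-07) and 1.48 ± 0.17 (adjusted p = 4.17e-07). Its neighbour Pmel shares 397 bases with it and was at no more than 1.54 CPM in any library. Rab5a rose by 1.16 ± 0.22 (adjusted p = 1.64e-04) and 1.00 ± 0.22 (adjusted p = 7.16e-04). The third member of this set, Rab5c, did not pass the test, with -0.04 ± 0.15 and -0.06 ± 0.15. Rab24, a Rab tied to autophagy, fell from 117, 114 and 118 CPM to 54.9, 37.0 and 49.9 CPM and 45.1, 46.0 and 53.3 CPM, or with a change of -1.30 ± 0.14 (adjusted p = 2.73e-07) and -1.27 ± 0.14 (adjusted p = 3.77e-07). Rab4a fell to 6.69, 4.41 and 5.0 CPM (-1.46 ± 0.15, adjusted p = 1.60e-07) and 7.23, 6.77 and 7.06 CPM (-1.07 ± 0.15, adjusted p = 6.20e-06). Rab20 was not called in IL_6h (-0.21 ± 0.27) and fell in IL_24h (-2.05 ± 0.28, adjusted p = 4.36e-06).

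Recycling Rabs moved in both directions, with 4 of 9 raised and 3 lowered at 6 h, and 3 and 5 at 24 h. Beside these stand 32.8% and 31.6% of all genes at 6 h, and 31.7% and 32.6% at 24 h. The 5 lowered at 24 h include Rab15, whose call rests on Ctrl_0h replicate 2. Rab10 rose to 153, 202 and 169 CPM and 139.9, 146 and 135 CPM, by 1.40 ± 0.15 (adjusted p = 2.42e-07) and 1.08 ± 0.15 (adjusted p = 5.30e-06). Rab8b, a Rab of exocytosis, rose from 179.6, 155 and 163 CPM to 304, 495 and 386 CPM and 392, 398 and 389.9 CPM, by 1.25 ± 0.16 (adjusted p = 1.76e-06) and 1.24 ± 0.16 (adjusted p = 2.01e-06). Rab13, known from cell junctions, fell with a change of -1.29 ± 0.16 (adjusted p = 1.26e-06) and -0.98 ± 0.16 (adjusted p = 3.02e-05). Rab15, which slows recycling from endosomes, was at 0.454, 7.64 and 0.294 CPM in untreated cells, 22.8, 20.2 and 22.2 CPM in IL_6h, 11.8, 8.73 and 10.4 CPM in IL_TNF_6h and 0.740, 0.352 and 0.718 CPM in IL_24h. The rise at 6 h was 2.98 ± 0.72 (adjusted p = 0.00128), and 5.83 without Ctrl_0h replicate 2 (adjusted p = 5.99e-09). The libraries of IL_TNF_6h lay below all of IL_6h, a change of -1.08 ± 0.66 (adjusted p = 0.377) that was not called in the fit of all libraries. It was called at about the same size when only these groups were fitted (-1.07, adjusted p = 0.00246), without the filter on low counts (adjusted p = 3.23e-04) and with 3 libraries, Ctrl_0h replicate 2 among them, left out (adjusted p = 7.47e-04).

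Late endosome and lysosome Rabs had 4 raised and 4 lowered of 10 at 6 h, and 3 and 5 at 24 h. Across all genes the shares were 32.8% and 31.6% at 6 h, and 31.7% and 32.6% at 24 h. Rab7 rose to 349, 393 and 393 CPM and 333, 346 and 376 CPM, by 0.65 ± 0.12 (adjusted p = 1.00e-04) and 0.54 ± 0.12 (adjusted p = 5.92e-04). Rab34 fell to 9.17, 8.48 and 9.0 CPM in IL_24h, with a change of -1.85 ± 0.15 (adjusted p = 7.12e-09). Rab29 fell from 37.6, 37.1 and 38.7 CPM to 16.8, 11.9 and 18.6 CPM at 6 h (-1.26 ± 0.14, adjusted p = 4.25e-07). Rab39 was at 2.70, 3.3 and 2.74 CPM in untreated cells and 1.29, 0.914 and 0.718 CPM in IL_24h, a change of -1.57 ± 0.32 (adjusted p = 2.84e-04). Rab38 was called in the other direction at 24 h, with 1.52, 1.99 and 2.10 CPM (1.25 ± 0.43, adjusted p = 0.0166), a call lost without IL_24h replicate 3 (adjusted p = 0.0605).

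Among secretion Rabs, Rab27a had a mean below that of untreated cells in every treated group. It was at 1.92, 1.05 and 0.776 CPM in IL_6h and 0.545, 1.27 and 1.03 CPM in IL_24h, changes of -1.80 ± 0.38 (adjusted p = 3.79e-04) and -2.21 ± 0.38 (adjusted p = 5.80e-05). Rab3d rose at 24 h, from 49.1, 34.5 and 46.7 CPM to 66.5, 67.7 and 73.6 CPM (0.67 ± 0.14, adjusted p = 2.65e-04), the opposite of its fall with TNF at the same time. Outside the secretion group, Rab40c fell with a change of -1.01 ± 0.11 (adjusted p = 1.40e-07) and -0.94 ± 0.11 (adjusted p = 3.78e-07).

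**Figure D4:**
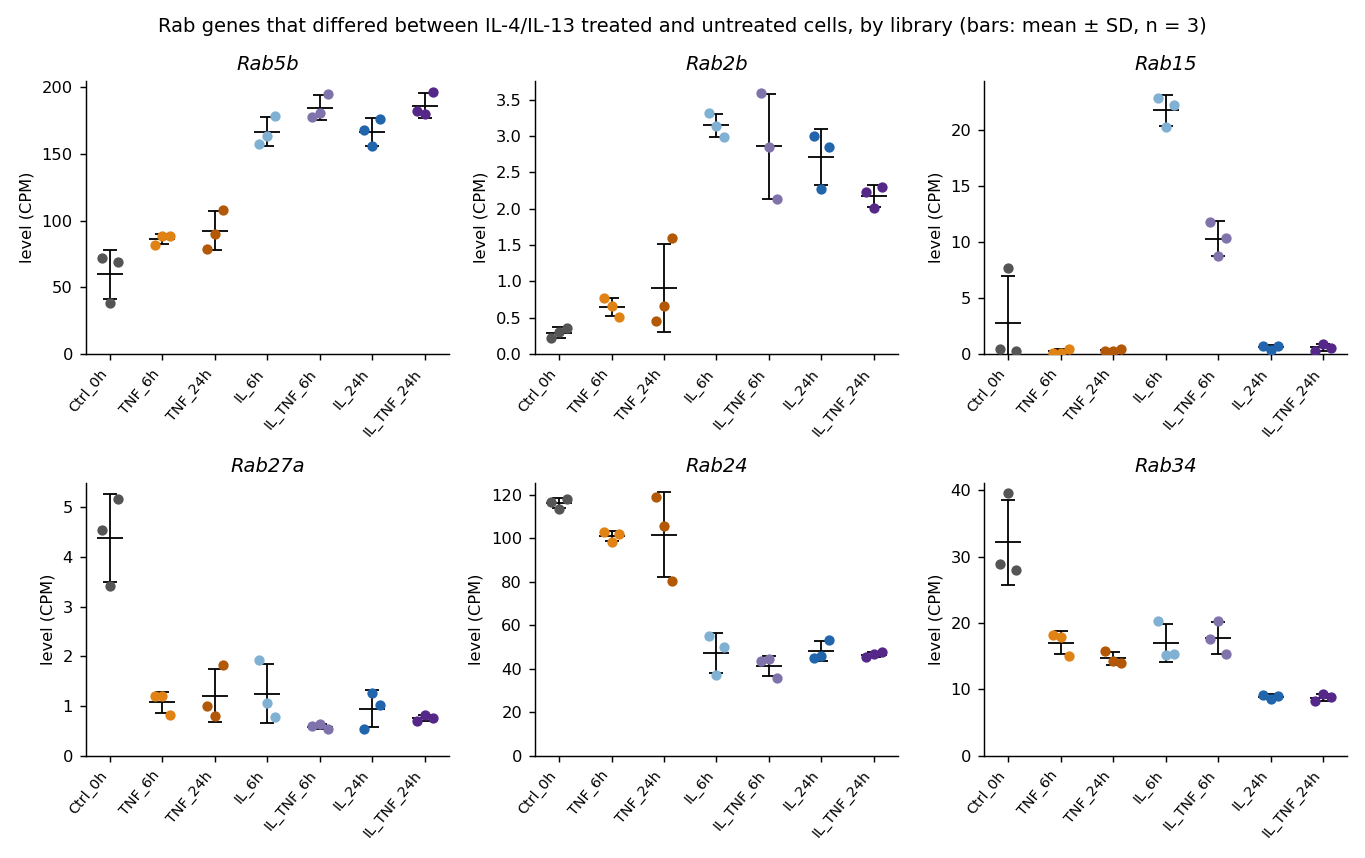
Level in CPM (y axis, from 0) of 6 Rab genes in each library of the 7 groups (x axis); points are libraries, horizontal bars the mean and error bars the SD of 3 libraries, cut at 0. Rab5b and Rab2b are higher in all IL-treated groups, and Rab15 is at 20.2 to 22.8 CPM in IL_6h. The means of Rab27a, Rab24 and Rab34 are highest in untreated cells. For Rab24, TNF_24h replicate 1 (119 CPM) lies above every untreated library. The single high untreated point of Rab15 is replicate 2.

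For several members the untreated level rests on Ctrl_0h replicate 2. Rab44, a large Rab of granule-bearing leukocytes, had 0, 106 and 0 counts in the 3 untreated libraries and 0 in all of TNF_24h. Rab26, known from secretory granules, had 0, 93 and 5 counts and entered the list through that library alone. Rab37, a Rab of secretory granules, had 21, 99 and 7 counts. Rab36, of the late endosome, was at 0.267, 2.71 and 0.196 CPM and also entered the list through that library alone. Its next highest group mean was 0.845 CPM, in IL_6h. The calls of Rab15, Rab36, Rab37 and Rab44 in TNF_6h or TNF_24h, and those of Rab15 and Rab37 in IL_24h, were lost or turned without it. Those of Rab36 in TNF_6h, Rab37 in TNF_24h and Rab44 in TNF_6h were also lost without single TNF libraries (Rab36 without TNF_6h replicate 1 or 2, Rab37 without any of TNF_24h, Rab44 without any of TNF_6h), and that of Rab15 in IL_24h without IL_24h replicate 2. Without Ctrl_0h replicate 2, the change of Rab15 was -0.72 in TNF_6h (adjusted p = 0.376), -0.21 in TNF_24h (adjusted p = 0.800) and 0.68 in IL_24h (adjusted p = 0.228). That of Rab36 was -0.17 in TNF_6h (adjusted p = 0.903). That of Rab37 was -0.37 in TNF_24h (adjusted p = 0.716) and -1.08 in IL_24h (adjusted p = 0.178). Further calls against Ctrl_0h were lost without this library, all of them rises except Rab13. They were Rab1a, Rab2b, Rab5a, Rab5b, Rab6a and Rab33b in TNF_6h, and Rab5c, Rab6a, Rab13 and Rab18 in TNF_24h. In IL_6h they were Rab4b, Rab19, Rab21, Rab28 and Rab32, and in IL_24h Rab4b. Other calls appeared without Ctrl_0h replicate 2. Rab3d, Rab8a and Rab38 were then called lower in IL_6h, and Rab3d in TNF_6h. Rab36 was then higher in IL_6h (1.84, adjusted p = 0.0323) and Rab43 higher in TNF_6h (1.19, adjusted p = 0.00533). Rab44 was called higher in IL_6h (adjusted p = 4.06e-06), IL_24h (adjusted p = 1.30e-04) and TNF_6h (adjusted p = 0.0468), against untreated libraries with 0 counts, and its effects of TNF at 6 h with and without IL differed (adjusted p = 0.00569). Within one set, Rab44 had 101, 51 and 66 counts in IL_6h and 9, 6 and 17 in IL_TNF_6h, which do not overlap. This fall was not called in the fit of all libraries (adjusted p = 0.188), and was called when only these groups were fitted (-2.68, adjusted p = 0.00570), without the filter on low counts (adjusted p = 0.0284) and with 3 libraries left out (adjusted p = 9.90e-04). Rab37 overlaps Cd300lf by 19159 bases, a gene at 33.3 to 54.1 CPM in IL_6h and 4.89 to 9.31 CPM in IL_TNF_6h.

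Close relatives were often called differently. Rab32 rose with TNF in all 4 comparisons, and its relative Rab38, at no more than 2.10 CPM in any library, was raised in none of them. Of Rab22a and Rab31, the first rose and the second fell with TNF alone at both times. Rab7 rose and Rab7b did not with TNF alone at 6 h, and with IL at 6 h Rab7b fell while Rab7 was not called (0.07 ± 0.12). With IL alone, Rab8b rose at both times, whereas Rab8a was not called at 6 h (-0.17 ± 0.11). Rab11a and Rab11b of the recycling endosome were both lower with IL at 24 h, with a change of -0.83 ± 0.12 (adjusted p = 4.58e-06) and -0.55 ± 0.11 (adjusted p = 2.60e-04). The difference between relatives was not tested, and the counting of reads that fit more than 1 of them is not given.

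Genes that act on the Rab cycle were taken from 4 lists of 128 genes written from general knowledge, of which 119 were tested. Of 8 genes for membrane delivery and prenylation, in TNF_6h 3 were raised and 1 lowered (37.5% and 12.5%, beside 18.8% and 20.5% of all genes). None passed the test in TNF_24h or when TNF was added to IL. With IL alone, 1 was raised and 4 lowered (12.5% and 50%, beside 32.8% and 31.6% of all genes) in IL_6h, and 2 were raised and 2 lowered (25% and 25%, beside 31.7% and 32.6% of all genes) in IL_24h. Chm, which presents Rabs to the prenyl transferase, rose by 1.70 ± 0.26 in IL_6h and 1.49 ± 0.26 in IL_24h. Rabac1, a membrane receptor for prenylated Rabs, fell with a change of -1.63 ± 0.25 and -1.49 ± 0.25 (169.7 against 477 CPM at 24 h).

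Of 33 exchange factors, in TNF_6h 10 were raised and 5 lowered (30.3% and 15.2%, beside 18.8% and 20.5% of all genes), and in TNF_24h 9 were raised and 7 lowered (27.3% and 21.2%, beside 20.9% and 24.4% of all genes). When TNF was added to IL, 1 was raised and 4 lowered (3.03% and 12.1%, beside 7.09% and 6.98% of all genes) at 6 h, and 2 were raised and 3 lowered (6.06% and 9.09%, beside 6.03% and 5.08% of all genes) at 24 h. With IL alone, 20 were raised and 8 lowered (60.6% and 24.2%, beside 32.8% and 31.6% of all genes) in IL_6h, and 18 were raised and 7 lowered (54.5% and 21.2%, beside 31.7% and 32.6% of all genes) in IL_24h. Mon1b, part of the exchange factor of Rab7, rose by 0.92 ± 0.17 in TNF_6h, 1.24 ± 0.17 in TNF_24h and 1.06 ± 0.17 in IL_TNF_6h. Rab3il1, an exchange factor of the Rab3 and Rab8 group, fell with a change of -1.59 ± 0.14 and -1.60 ± 0.14 with TNF alone and with a change of -0.63 ± 0.14 in IL_TNF_6h. Dennd4c, an exchange factor of Rab10, rose by 2.88 ± 0.19 in IL_6h and 2.52 ± 0.19 in IL_24h, and fell with TNF on top of IL with a change of -0.64 ± 0.18 at 6 h and -0.55 ± 0.18 at 24 h.

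Of 36 tested GTPase-activating proteins, in TNF_6h 9 were raised and 9 lowered (25% and 25%, beside 18.8% and 20.5% of all genes), and in TNF_24h 7 were raised and 10 lowered (19.4% and 27.8%, beside 20.9% and 24.4% of all genes). When TNF was added to IL, 2 were raised and 6 lowered (5.56% and 16.7%, beside 7.09% and 6.98% of all genes) at 6 h, and 3 were raised and 2 lowered (8.33% and 5.56%, beside 6.03% and 5.08% of all genes) at 24 h. With IL alone, 16 were raised and 5 lowered (44.4% and 13.9%, beside 32.8% and 31.6% of all genes) in IL_6h, and 20 were raised and 6 lowered (55.6% and 16.7%, beside 31.7% and 32.6% of all genes) in IL_24h. Tbc1d8, which carries the domain of this family, rose by 1.70 ± 0.17, 2.06 ± 0.17, 0.87 ± 0.17 and 2.08 ± 0.17 in the 4 comparisons of cells with and without TNF, with 177 against 42.0 CPM in the last. Tbc1d13, which acts on Rab35, rose by 1.19 ± 0.12, 1.75 ± 0.12 and 0.61 ± 0.12 in TNF_6h, TNF_24h and IL_TNF_6h. Tbc1d16, which acts on Rab4, rose with IL by 3.93 ± 0.15 at 6 h and 2.12 ± 0.14 at 24 h, and fell with a change of -0.88 ± 0.13 when TNF was added at 6 h.

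Of 42 tested effectors, in TNF_6h 9 were raised and 9 lowered (21.4% and 21.4%, beside 18.8% and 20.5% of all genes), and in TNF_24h 8 were raised and 13 lowered (19% and 31%, beside 20.9% and 24.4% of all genes). When TNF was added to IL, 3 were raised and 8 lowered (7.14% and 19%, beside 7.09% and 6.98% of all genes) at 6 h, and 1 was raised and 5 lowered (2.38% and 11.9%, beside 6.03% and 5.08% of all genes) at 24 h. With IL alone, 24 were raised and 10 lowered (57.1% and 23.8%, beside 32.8% and 31.6% of all genes) in IL_6h, and 24 were raised and 5 lowered (57.1% and 11.9%, beside 31.7% and 32.6% of all genes) in IL_24h. Appl1, an adaptor bound by Rab5, rose by 1.25 ± 0.16 in TNF_24h, 0.89 ± 0.15 in IL_TNF_6h and 2.52 ± 0.16 in IL_6h. Mical1, an actin oxidase bound by Rab35, fell with a change of -0.67 ± 0.22, -2.42 ± 0.23 and -1.82 ± 0.23 in TNF_6h, TNF_24h and IL_TNF_6h. Plekhm1, which joins Rab7 to the lysosome fusion machinery, fell with a change of -1.04 ± 0.13 and -0.62 ± 0.13 when TNF was added to IL. The median changes over the effectors were 0.59 and 0.61 in IL_6h and IL_24h, beside -0.01 and -0.06 over all genes tested.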

How the data were processed

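Raw read counts per Ensembl gene were deposited for 21 libraries. The authors made them with TopHat2 2.0.12 and featureCounts (Subread 1.6.3) on GRCm38, per the submitters' processing notes. Annotation, strand setting and handling of reads with several matches are not given there.

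Symbols were matched for 32832 of 47069 identifiers. Counts were scaled by TMM, filtered by group (filterByExpr) and fitted over all libraries in edgeR 4.0.16 under R 4.3.3 (quasi-likelihood test), with Benjamini-Hochberg adjustment over 15581 genes. The standard error is the log2 fold change divided by the square root of F. Levels per kilobase used exon lengths of GENCODE M1 (NCBIM37), and gene overlaps RefSeq bounds.

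Full statistics were fixed for up to 4 raised and 4 lowered members per comparison with the largest change among those called without overlap of libraries (for differences between effects, among those called), and for paralog sets. Other members were named after their values were seen. List examples were up to 2 called genes per direction at 10 CPM or more. The members and lists were chosen with earlier results of these data known. Alternatives were DESeq2 1.42.0, its size factors, other filters, only the compared groups, a replicate block and libraries left out.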

Additional observations from a re-analysis of the deposited data

Results flagged for a closer look

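The effect of TNF differed with and without IL for named members, as log2 differences of the effect with IL minus that without, each with an adjusted p under 0.05 in the interaction term of the edgeR fit. At 6 h the difference was positive for Rab38 (1.96 ± 0.65), Rab34 (0.98 ± 0.21) and Rab23 (0.91 ± 0.25). It was negative for Rab19 (-1.34 ± 0.22), Rab7b (-1.27 ± 0.18), Rab3a (-1.25 ± 0.26) and Rab7 (-0.58 ± 0.17). The call of Rab38 was lost without Ctrl_0h replicate 1 or 3, IL_6h replicate 2 or 3, IL_TNF_6h replicate 1, 2 or 3 or TNF_6h replicate 2 or 3 (adjusted p from 0.0544 to 0.108). That of Rab23 was lost without IL_TNF_6h replicate 3 (adjusted p = 0.0546), and that of Rab7 without IL_6h replicate 3, IL_TNF_6h replicate 1 or 2 or TNF_6h replicate 2 (adjusted p from 0.0550 to 0.0586).

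At 24 h the difference was positive for Rab27a (1.53 ± 0.54), Rab3a (1.39 ± 0.26), Rab34 (1.11 ± 0.21) and Rab4a (0.94 ± 0.22). It was negative for Rab2b (-1.94 ± 0.51), Rab20 (-1.10 ± 0.38), Rab5a (-1.08 ± 0.31) and Rab12 (-0.99 ± 0.18). The call of Rab27a was lost without Ctrl_0h replicate 1 or 3, IL_24h replicate 1 or 3, IL_TNF_24h replicate 1, 2 or 3 or TNF_24h replicate 1 or 2 (adjusted p from 0.0672 to 0.126). That of Rab20 was lost without Ctrl_0h replicate 2 or 3, IL_24h replicate 1, 2 or 3, IL_TNF_24h replicate 2 or 3 or TNF_24h replicate 1 or 2 (adjusted p from 0.0640 to 0.123), and the difference was -1.79 without IL_TNF_24h replicate 1 (adjusted p = 2.40e-05). That of Rab5a was lost without IL_TNF_24h replicate 2 or TNF_24h replicate 3 (adjusted p from 0.0519 to 0.0644). For Rab3a the differences at 6 and 24 h had opposite signs.

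With IL present, the effect of TNF on Rab19 differed between 24 and 6 h, by 1.12 ± 0.21 on the log2 scale, with the deeper fall at 6 h. The groups with IL at 6 h and at 24 h are different sets of libraries, so time cannot be told apart from the set.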

How the results depend on the processing

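Of the members named by rule, none changed direction under the alternatives run. Outside that rule, Rab44 in TNF_6h went from -4.11 to 4.38 (adjusted p = 0.0468) and Rab15 in IL_24h from -2.17 to 0.68 (adjusted p = 0.228) without Ctrl_0h replicate 2. With 1 library left out, 452 values of named members kept their side of the threshold and 64 lost it. Under the other alternatives, 483 kept it and 31 lost it. Membership was 51 at a threshold of 0.5 CPM and 42 at 2 CPM.

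With 1 library left out, the number of Rab genes called was 16 to 24 for TNF_6h against Ctrl_0h, 5 to 7 for TNF_24h against TNF_6h, 5 to 7 for IL_TNF_24h against IL_24h, 5 to 14 for the difference between the effects of TNF at 6 h and 1 to 3 for that between 24 and 6 h with IL. It was 23 to 29 for TNF_24h and 29 to 36 and 30 to 33 for IL_6h and IL_24h against Ctrl_0h, 10 to 12 for IL_TNF_6h against IL_6h and 11 to 19 for the difference at 24 h. With Ctrl_0h replicate 2, TNF_6h replicate 3 and IL_TNF_24h replicate 1 left out together, the count was 16 for TNF_6h against Ctrl_0h and 5 for the difference between 24 and 6 h with IL. Without a filter on low counts it was 5 for TNF_24h against TNF_6h. The difference between 24 and 6 h with IL gave 2 with DESeq2's size factors, with the DESeq2 Wald test, with the strict filter and with the replicate block. The cause was not tested. Leaving out IL_6h replicate 2 and IL_TNF_6h replicate 3 together was chosen after seeing the data.

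The correlations of same-numbered libraries ran from -0.31 to 0.363. Differently numbered libraries were not set beside them, so these values cannot decide whether replicate numbers pair the libraries. With the replicate block, the counts for the 7 comparisons of groups were 23, 29, 10, 13, 9, 35 and 33, in the order TNF_6h, TNF_24h, TNF_24h against TNF_6h, IL_TNF_6h, IL_TNF_24h, IL_6h and IL_24h. For the differences between effects they were 7 at 6 h and 15 at 24 h. Members under 1 CPM rest on few counts, so small changes in them were not detectable at this depth.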
